A study of Mus musculus with 26 samples.

Results

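The 8 genes described here, Krt7, Krt19, Krt23, Epcam, Sox9, Spp1, Cftr and Prom1, are markers of bile duct cells and of the ductular reaction. They were taken by name, as a list, from the 47643 genes of a table of read counts of mouse liver, and all 8 were found in it. The study sequenced messenger RNA of 26 libraries in 10 groups and set 5 treated groups against their own controls. Its title names drug metabolism in cholestatic livers as the subject.

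The first comparison used wild type C57BL/6J mice of 8 weeks, fed ad libitum, given corn oil (2 libraries) or TCPOBOP, an activator of the nuclear receptor CAR (2 libraries). The titles give 36 hours after TCPOBOP and the source names give 6 hours. The second set 3 libraries of Fxr-/- Shp-/- mice, lacking a bile acid receptor and a repressor that it induces, against 3 of wild type mice, all C57BL/6J, 12 weeks old and fed ad libitum. The third used C3H/HeN mice of 8 to 10 weeks, fed ad libitum, with 3 libraries labelled 0 hour sham and 3 labelled 48 hours after partial hepatectomy. The fourth used hepatocytes, not whole liver, of wild type C57BL/6J mice of 16 weeks after a 10 hour fast, with 2 libraries on chow and 2 on a 60% high fat diet. The fifth used C57BL/6J mice of 10 to 12 weeks with the genotype fl/fl Fxr fl/fl Shp after an 8 to 10 hour fast, with 3 libraries on chow and 3 on a cholic acid diet. The floxed alleles were present in both arms, and no Cre is named in their labels. All comparisons other than the fourth used whole liver.

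Cholangiocytes line the bile ducts and modify bile by moving chloride, bicarbonate and water. In cholestasis and other injury, small irregular ducts can spread from the portal tracts, which is called the ductular reaction, and hepatocytes can take on some duct genes. Krt7 and Krt19 encode keratins of the simple epithelium of ducts and are also made by mesothelium, and Krt23 encodes a type I keratin. Epcam encodes an adhesion protein of epithelial cells, Prom1 the membrane protein CD133 of progenitors and ducts, and Cftr the chloride channel of the apical duct membrane. Sox9 encodes a transcription factor of duct fate, and Spp1 encodes osteopontin, a secreted phosphoprotein that macrophages also make.

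The 300-base windows around the starts of 4 of the genes on which the results turn are shown here, 250 bases before to 50 after the start, 5′ to 3′ on the gene's strand, from RefSeq on GRCm38.p6. The windows of Krt23 and Prom1 belong to the genes that stood apart in the high fat and the cholic acid comparison, and those of Epcam and Spp1 to genes higher in the knockout.
Krt23 (chr11:99493071-99493370, minus strand): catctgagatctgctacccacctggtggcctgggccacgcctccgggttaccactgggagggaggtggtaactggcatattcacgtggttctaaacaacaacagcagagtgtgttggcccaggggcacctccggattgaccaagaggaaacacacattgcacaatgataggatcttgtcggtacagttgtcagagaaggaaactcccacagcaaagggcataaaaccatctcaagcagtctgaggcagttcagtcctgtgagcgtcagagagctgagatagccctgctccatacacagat
Prom1 (chr5:44101687-44101986, minus strand, 1 of 2 windows in the table): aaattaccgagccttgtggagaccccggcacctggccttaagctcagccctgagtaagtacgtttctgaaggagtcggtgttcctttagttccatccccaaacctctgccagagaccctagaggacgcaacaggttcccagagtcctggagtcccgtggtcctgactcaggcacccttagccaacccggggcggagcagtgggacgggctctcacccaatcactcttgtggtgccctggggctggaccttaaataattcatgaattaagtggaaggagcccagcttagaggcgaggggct
Epcam (chr17:87635729-87636028, plus strand): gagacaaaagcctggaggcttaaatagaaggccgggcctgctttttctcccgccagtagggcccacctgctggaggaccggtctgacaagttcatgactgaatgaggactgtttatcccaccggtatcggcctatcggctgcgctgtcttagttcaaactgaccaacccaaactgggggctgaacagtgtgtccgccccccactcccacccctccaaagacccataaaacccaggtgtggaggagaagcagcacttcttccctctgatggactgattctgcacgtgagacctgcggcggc
Spp1 (chr5:104434861-104435160, plus strand, 1 of 2 windows): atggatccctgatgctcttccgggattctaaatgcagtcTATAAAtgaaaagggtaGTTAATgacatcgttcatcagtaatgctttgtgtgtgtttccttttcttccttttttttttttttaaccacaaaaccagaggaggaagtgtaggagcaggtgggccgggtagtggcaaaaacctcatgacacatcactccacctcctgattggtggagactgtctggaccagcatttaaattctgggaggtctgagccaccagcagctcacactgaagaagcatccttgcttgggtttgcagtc
Capitals mark matches to 5 short motifs that were searched on both strands: the HNF1 half-site GTTAAT, the TEAD motif GGAATG, the RBPJ motif GTGGGAA, the nuclear receptor half-site AGGTCA and the TATA motif TATAAA. Among 32851 promoters of the same length, 7.1%, 14.7%, 6.38%, 16.3% and 13.6% held them, in that order. The Spp1 window held GTTAAT 194 bases and TATAAA 211 bases before the start. The other 3 windows held none of these letters, and a Krt7 window held AGGTCA 16 bases after its start. RefSeq windows were matched for 6 of the 8 genes (8 windows), and those of Krt19 and Sox9 are named only.

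On GRCm38 the 3 genes Krt19 (chr11:100140810-100148665), Krt23 (chr11:99477974-99493137) and Sox9 (chr11:112782224-112787760) lie on chromosome 11, and Spp1 (chr5:104435118-104441050) and Prom1 (chr5:43993620-44102032) lie on chromosome 5. Krt7 lies at chr15:101411043-101430313, Epcam at chr17:87635979-87651129 and Cftr at chr6:18170687-18322768. The GENCODE M21 annotation gives all 8 as protein coding. Its exons, merged over all transcripts of a gene, add up to between 1565 bases for Krt23 and 7765 bases for Cftr. Levels per kilobase use these merged lengths, and the annotation over which the submitters counted reads is not given. Of the exonic bases of Spp1, 18.8% are shared with the same-strand gene Gm42793, so some of its reads could have been counted as ambiguous. Opposite-strand genes cover 5.91% of Prom1, 1.66% of Cftr and 1.09% of Krt7, and whether the counting used the strand is not given in the sources used here.

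Libraries held 13949059 to 70367874 reads assigned to genes. Levels are given as CPM, the reads of a gene per 1000000 reads assigned to genes, scaled by 1 set of TMM factors over all 26 libraries. A library's limit for a count of 0, taken as 3 reads, lay between 0.0426 and 0.215 CPM and covers counting error only. The labels do not say that replicates came from separate mice, so p-values measure the spread between these samples. Nr0b2, which encodes Shp, had 226 to 446 counts in the wild type and 13 to 39 in the knockout libraries, and Nr1h4, which encodes Fxr, had 1941 to 2846 against 1198 to 1421. The library labelled corn oil 1 held 3672 CPM of the CAR target Cyp2b10, near the 3420 and 2976 CPM found after TCPOBOP, while corn oil 2 held 10.002 CPM. Summed over 8 hepatocyte genes, corn oil 1 held 53710 CPM, the TCPOBOP libraries 59890 and 65210 CPM, and corn oil 2 held 107200 CPM. Because 1 of 2 controls goes against its label, the TCPOBOP comparison is described last, with and without it.

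Per kilobase of exon, osteopontin was the most abundant of the 8 messages in wild type liver and the chloride channel the least. The wild type means were 15.4 ± 2.47 CPM per kb for Spp1, 0.988 ± 0.279 for Sox9, 0.562 ± 0.179 for Krt23, 0.430 ± 0.0328 for Epcam, 0.311 ± 0.160 for Krt19, 0.0898 ± 0.0261 for Prom1, 0.0529 ± 0.0462 for Krt7 and 0.00775 ± 0.0134 for Cftr (SD, n = 3). In the hepatocytes of mice on the high fat diet, Krt23 (10.1 ± 6.27 CPM per kb) had a higher mean than Spp1 (7.22 ± 3.85, SD, n = 2). Krt23 was also above Spp1 within each library, at 14.6 against 9.94 and 5.70 against 4.50 CPM per kb. With 2 libraries the spread of that difference is poorly known. Ordered by mean CPM over the 10 groups, the knockout held the highest level of Epcam, Sox9, Spp1 and Cftr, hepatectomy that of Krt7 and Krt19, the high fat hepatocytes that of Krt23, and the cholic acid group that of Prom1. Most neighbouring groups in these orders overlapped. All 9 neighbouring pairs overlapped for Krt7 and for Sox9, 8 for Krt23 and for Cftr, 7 for Spp1, and 6 for Krt19, Epcam and Prom1. Krt19, Epcam, Cftr and Prom1 were separated at the step from whole liver to the hepatocytes.

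**Figure D1:**
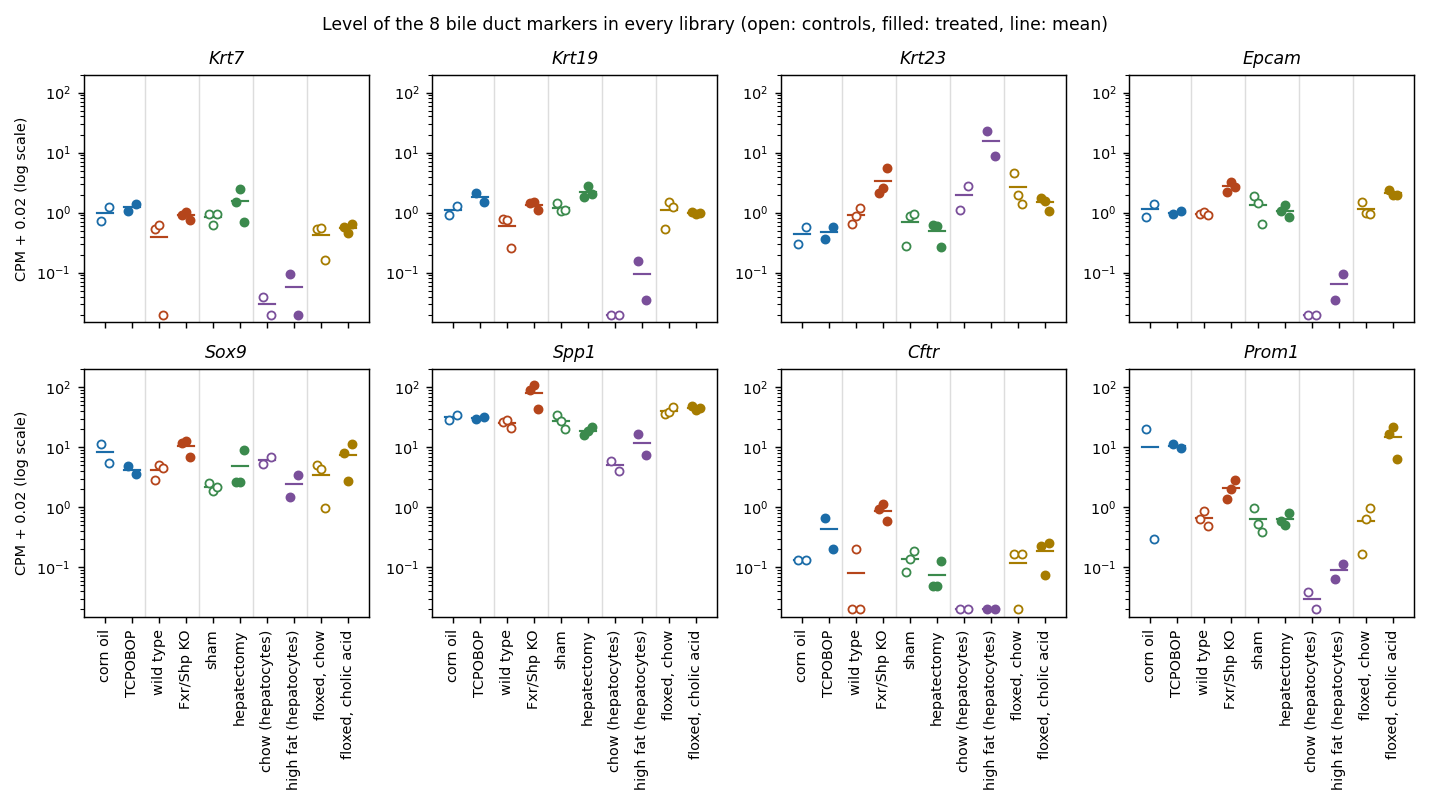
Level of each of the 8 genes in every library, in CPM with an offset of 0.02 on a log axis, with open points for controls, filled points for treated libraries and a line for the group mean. Krt7, Krt19, Epcam, Cftr and Prom1 lie near the bottom in both hepatocyte groups, the high fat hepatocytes are highest for Krt23, and the cholic acid libraries lie above their controls for Prom1.

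In the Fxr-/- Shp-/- livers the duct markers rose nearly as a whole: 7 of 8 were called higher than in wild type and none lower, by log2 fold changes of 1.22 to 3.80 (edgeR quasi-likelihood test, adjusted p under 0.05). Over all 13473 genes tested, 40.4% were called, 21% higher and 19.4% lower. The median log2 fold change was 1.61 over the 8 markers and -0.01 over all genes. For all 8, each knockout library lay above each wild type library, also for Krt7, which was not called. The share of all genes separated in this way was not computed, so this separation is a description only.

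Among the membrane proteins, Epcam had 0.929, 1.02 and 0.882 CPM in wild type and 2.21, 3.26 and 2.66 CPM in the knockout libraries. The groups did not overlap, and the log2 fold change was 1.53 ± 0.25 (SE, adjusted p = 0.0018). Prom1 had 0.619, 0.843 and 0.470 CPM in wild type and 1.34, 1.99 and 2.86 CPM in the knockout. It was higher by a log2 fold change of 1.70 ± 0.37 (adjusted p = 0.0073), but the call was lost when all 26 libraries shared 1 estimate of the spread (adjusted p = 0.15). Cftr was counted 0, 3 and 0 times in wild type and 21, 25 and 14 times in the knockout libraries. Its summed counts were 3 and 60, a ratio of 15.1 after scaling with a 95% interval of 4.92 to 75.3 that covers counting error only (log2 fold change 3.80 ± 0.78, adjusted p = 0.00526). Wild type 2 held all 3 of the control counts, and without it the fitted value was 7.21. Even in the knockout, Cftr stayed at 0.861 ± 0.269 CPM (SD, n = 3).

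The keratins moved by different amounts. Krt23 had 0.619, 0.843 and 1.18 CPM in wild type and 2.12, 2.51 and 5.48 CPM in the knockout (log2 fold change 1.97 ± 0.43, adjusted p = 0.00711), with knockout 3 the highest. Krt19 had 0.774, 0.722 and 0.235 CPM in wild type and 1.43, 1.5 and 1.10 CPM in the knockout. Its log2 fold change was 1.22 ± 0.40 with an adjusted p of 0.0378, and the call was lost without any 1 of wild type 1, 2 or 3 or knockout 1 or 2, where the value ran from 0.84 to 1.495. Krt7 had 0.516, 0.602 and 0 CPM in wild type and 0.909, 1.01 and 0.736 CPM in the knockout libraries, at 23 counts or fewer in each. Its groups did not overlap either, but the test did not call it (log2 fold change 1.24 ± 0.64, adjusted p = 0.151).

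Sox9, the duct transcription factor, had 2.79, 4.995 and 4.47 CPM in wild type and 11.6, 12.8 and 6.87 CPM in the knockout. It was higher by a log2 fold change of 1.37 ± 0.28 (adjusted p = 0.00531), with an adjusted p of 0.0653 when all 26 libraries shared 1 estimate of the spread. Hepatocytes of chow-fed mice in another experiment averaged 6.08 CPM of Sox9, and the part of hepatocytes in its rise was not tested. Spp1 had 26.6, 28.8 and 20.9 CPM in wild type and 89.6, 109.4 and 43.1 CPM in the knockout, so knockout 3 was the lowest of its group for Spp1 and Sox9 and the highest for Krt23 and Prom1. Spp1 was higher by a log2 fold change of 1.68 ± 0.30 (adjusted p = 0.00272).

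Some further genes listed for duct epithelium and duct fate were called higher in the same livers. Of 18 further cholangiocyte genes, 15 were tested, 7 were called higher and 1 lower, with a median log2 fold change of 0.73. Hepatocytes also held this list, with sums of 416.6 to 526.1 CPM on chow, against 462.6 to 506.2 CPM in wild type liver. Krt8, Krt18 and Aqp1, all called higher, averaged 192, 194 and 16.5 CPM in chow hepatocytes, against 167, 194 and 45.2 CPM in wild type liver. The part of hepatocytes in these calls was not tested. Cldn4, a tight junction protein, was counted 0 times in all 3 wild type libraries and 14 to 19 times in the knockout libraries, and was at least 4.04-fold higher than the limit of 3 counts in the wild type library with the highest limit. With Cldn4 at that bound the median stays the same. Tspan8, a tetraspanin of epithelia, was higher by 2.60 ± 0.45, Cd24a, a surface glycoprotein, by 1.84 ± 0.27 and Bicc1, an RNA-binding protein whose loss gives cystic ducts, by 1.11 ± 0.28 on the log2 scale (adjusted p = 0.00234, 0.00105 and 0.0135). The chloride-bicarbonate exchanger Slc4a2 was the 1 gene called lower and fell by 0.47 on the log2 scale (adjusted p = 0.0115).

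Of 25 genes that encode regulators and signals of duct fate or are induced in reactive ducts, 22 were tested, 12 were called higher and none lower (median log2 fold change 0.80). Elsewhere this list is called regulators and signals of duct fate for short, though some of its genes, such as Lcn2, are not regulators. The epithelial transcription factor Elf3 averaged 0.153 ± 0.0435 CPM over the 3 control libraries, where the knockout averaged 10.8 ± 7.63 CPM (SD, n = 3 each), a log2 fold change of 6.12 ± 0.96 (adjusted p = 0.00135). Mmp7, a protease of injured epithelium, the Notch target Hey1 and the growth factor Tgfb2 were higher by 2.35 ± 0.74, 2.28 ± 0.38 and 2.175 ± 0.41 (adjusted p = 0.033, 0.00183 and 0.00337). These lists and the 8 markers share no gene, but all were chosen with earlier results of these data known. The lists are thus a description and not independent support.

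Some markers of other cells were called as well, in shares to be read beside the 40.4% of all genes called. Of 10 stellate cell and fibroblast genes, 7 were called higher, with sums of 431 to 482 CPM in the knockout against 190.2 to 314.1 CPM in wild type. Of 10 macrophage and leukocyte genes, 4 were called higher (287.2 to 546.2 against 174.5 to 322 CPM) and 6 were not called. The 4 were Trem2, Gpnmb, Cd74 and Cd68, with log2 fold changes of 5.875, 5.43, 1.64 and 1.54. Trem2 averaged 0.0774 CPM in wild type, near the limit of detection, and 4.73 CPM in the knockout, and Gpnmb 0.247 and 10.7 CPM. Of 7 endothelial genes, 2 were called higher (136.1 to 193.7 against 72.76 to 138.8 CPM). Of 8 hepatocyte genes, 5 were called lower. Of 5 mesothelial genes, 2 were tested and neither was called (adjusted p of at least 0.112 in edgeR's test, no gene at an unadjusted p under 0.05, and none called by DESeq2), with sums of 1.103 to 5.437 against 0.294 to 3.25 CPM. The pancreatic acinar genes Cpa1, Pnlip, Prss2 and Ctrb1 were at 0 counts in all wild type and knockout libraries. The other 2 acinar genes of that list were both called: Cela2a was lower (0.867 ± 0.0215 CPM in the controls, 0.128 ± 0.00506 CPM in the knockout, SD, n = 3 each), and Cela3b was at 0 counts in the controls and higher in the knockout at 0.707 ± 0.209 CPM (adjusted p = 0.000684 and 0.00183). The part of these cells in the marker changes was not tested. In whole liver, a change in the number of cells of a type and a change in RNA per cell cannot be told apart.

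**Figure D2:**
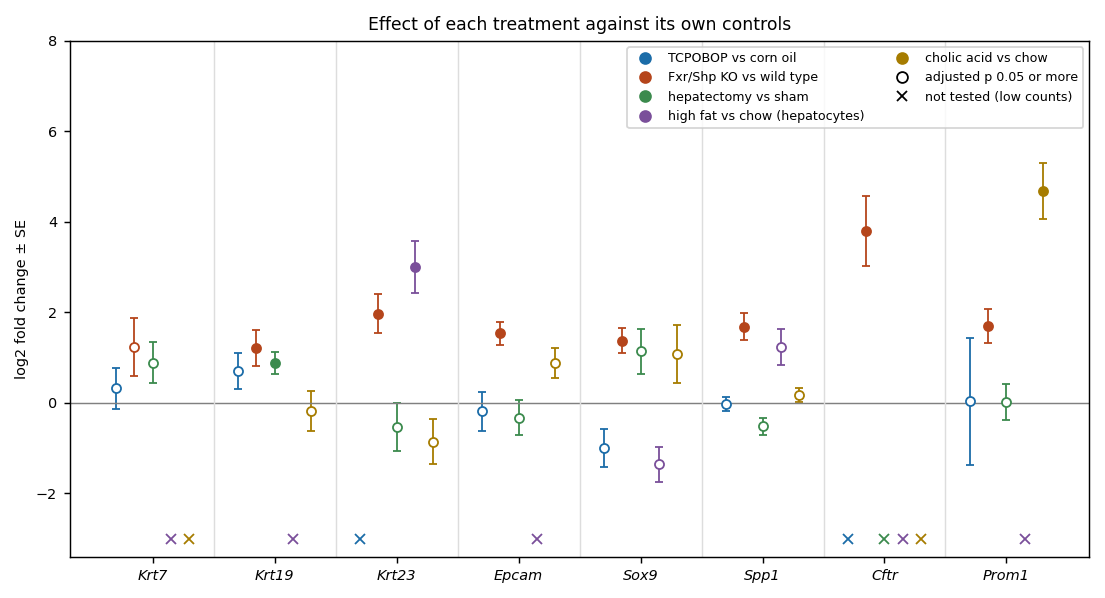
Log2 fold change ± SE (y axis) of each of the 8 genes (x axis) in the 5 comparisons, with filled points for an adjusted p under 0.05, open points otherwise and crosses at the bottom for genes not tested. Of the 8 genes, 7 are filled above 0 in the knockout, while hepatectomy, high fat diet and cholic acid have 1 filled point each, for Krt19, Krt23 and Prom1.

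With the cholic acid diet, Prom1 was the 1 marker of 6 tested that was called, and it was higher. Prom1 had 0.148, 0.610 and 0.942 CPM on chow and 16.7, 21.5 and 6.24 CPM on cholic acid, or 2, 9 and 13 counts against 330, 399 and 131. The lowest cholic acid library was far above the highest chow library. The log2 fold change was 4.68 ± 0.63 (adjusted p = 0.00903). The call held without each library in turn, with values of 4.24 to 5.22. Over all 12577 genes tested, 4.77% were called, 2.27% higher and 2.5% lower.

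Epcam had 1.48, 0.949 and 0.942 CPM on chow and 2.32, 1.94 and 1.95 CPM on cholic acid. The groups did not overlap, but the test did not call it (log2 fold change 0.88 ± 0.34, adjusted p = 0.168). Sox9 had 5.11, 4.34 and 0.942 CPM on chow and 7.98, 2.70 and 11.3 CPM on cholic acid, so the groups overlapped (log2 fold change 1.08 ± 0.64, adjusted p = 0.351). Spp1 stood at 35.1 to 46.2 CPM on chow and 41.6 to 48.4 CPM on cholic acid (0.17 ± 0.16, adjusted p = 0.551). Both tested keratins also overlapped between the groups: Krt19 had a log2 fold change of -0.18 ± 0.44 (adjusted p = 0.842) and Krt23 one of -0.85 ± 0.49 (adjusted p = 0.334). Krt7, at 2 to 13 counts, and Cftr, at 0 to 5 counts, did not pass the filter on low counts.

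Of the further cholangiocyte genes, 13 were tested and 1 was called, the exchanger Slc4a2, at 21.2 ± 1.35 CPM on chow and 34.4 ± 0.377 CPM on cholic acid (SD, n = 3; log2 fold change 0.70 ± 0.14, adjusted p = 0.0313). The median of these 13 was 0.92, against 0.01 over all genes, and DESeq2 called 6 of the list higher. Of the regulators and signals of duct fate, 18 were tested and none was called by edgeR, with 6 at an unadjusted p under 0.05 and 2 called higher by DESeq2. Of the markers of other cells, 1 of 9 tested stellate genes was called higher and 1 of 8 hepatocyte genes lower. Of 7 endothelial genes none was called by edgeR (4 at an unadjusted p under 0.05, 1 called higher by DESeq2, median log2 fold change 0.54), with sums of 122.8 to 173.4 CPM on cholic acid against 99.67 to 118.5 CPM on chow. None of 9 macrophage genes was called (0 at an unadjusted p under 0.05 and 0 by DESeq2), with sums of 234.1 to 391.5 CPM on cholic acid against 141.7 to 287.5 CPM on chow, and their part in the Prom1 difference was not tested.

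In hepatocytes, 5 of the 8 markers were near the limit of detection and Krt23 was not. Cftr was counted 0 times in all 4 libraries, Epcam 0 and 0 times on chow and 1 and 5 times on the high fat diet, Krt19 0 and 0 against 9 and 1 times, Krt7 1 and 0 against 5 and 0 times, and Prom1 1 and 0 against 3 and 6 times. None of these 5 passed the filter on low counts. Krt23 had 57 and 159 counts on chow and 1521 and 583 on the high fat diet, or 1.10 and 2.75 CPM against 22.8 and 8.93 CPM. The lower high fat library was well above the higher chow library.

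Krt23 was called higher, with a log2 fold change of 3.00 ± 0.58 (adjusted p = 0.0194). Its value was 2.18 to 3.80 when 1 library was left out, the lowest without high fat 1, and the call held in each of the 4 cases. Over all 13892 genes tested, 24% were called, 12.9% higher and 11.1% lower. Spp1 had 5.92 and 4.01 CPM on chow and 16.4 and 7.41 CPM on the high fat diet, and Sox9 had 5.28 and 6.87 CPM against 1.45 and 3.38 CPM. Neither gene overlapped between the groups, and neither was called by edgeR (Spp1 1.23 ± 0.40, adjusted p = 0.0715; Sox9 -1.36 ± 0.39, adjusted p = 0.0539). Sox9 was called lower without chow 1 (-1.53) or without high fat 2 (-2.10), and Spp1 higher without high fat 2 (1.68). DESeq2 called both (Sox9 -1.36, adjusted p = 0.00362; Spp1 1.22, adjusted p = 0.00559). Sox9 was also called with no filter on low counts (adjusted p = 0.0376), and Spp1 in 1 fit of all 26 libraries (adjusted p = 0.0253), where Sox9 was not (adjusted p = 0.208).

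Of the further cholangiocyte genes, 8 were tested in hepatocytes, 4 were called higher and 1 lower (median 0.80, against 0.01 over all genes). Wfdc2, a secreted protease inhibitor of epithelia, averaged 2.69 ± 0.458 CPM on chow and 26.8 ± 0.702 CPM on the high fat diet (SD, n = 2), a log2 fold change of 3.29 ± 0.15 (adjusted p = 0.000588). The water channel Aqp1 and Pkhd1, the fibrocystin of duct cilia, were higher by 1.18 ± 0.10 and 0.95 ± 0.13 (adjusted p = 0.00306 and 0.00828), and the cell adhesion protein Cdh1 was lower by a log2 fold change of -1.72 ± 0.44 (adjusted p = 0.0409). Of the regulators and signals of duct fate or genes of reactive ducts, 18 were tested, 5 were called higher and 2 lower (median 0.43). Among these the transcription factors Sox4 (2.169 ± 0.47) and Onecut1 (1.69 ± 0.38), the secreted iron-carrier protein Lcn2 (1.95 ± 0.19) and the Hippo pathway factor Tead1 (1.22 ± 0.13) were the furthest from 0, with adjusted p of 0.0257, 0.0287, 0.00424 and 0.00545.

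Markers of cells other than hepatocytes were low in these libraries and higher on the high fat diet. The stellate sum was 42.57 and 46.74 CPM against 10.53 and 17.27 CPM, with 7 of 8 tested genes called higher. The endothelial sum was 104.1 and 108.1 against 42.34 and 43.82 CPM (6 of 7 called higher), and the macrophage sum 73.01 and 76.99 against 39.27 and 46.15 CPM (6 of 8 called higher). The mesothelial sum was at most 0.345 CPM. Their part in the Krt23 and Spp1 differences was not tested, and Krt19 and Epcam were at 0 in both chow libraries and at 0.014996 to 0.135 CPM on the high fat diet.

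At 48 hours after partial hepatectomy, Krt19 was the 1 marker of 7 tested that was called by edgeR, and it was higher, while DESeq2 called 3 (Krt19 and Sox9 higher, Spp1 lower). It had 1.45, 1.05 and 1.07 CPM in the sham and 1.79, 2.72 and 2.05 CPM in the hepatectomy libraries, and the groups did not overlap. The log2 fold change was 0.88 ± 0.25 (adjusted p = 0.0291). The call was lost without sham 2 (0.80), sham 3 (0.81) or hepatectomy 2 (0.69), and in 1 fit of all 26 libraries (adjusted p = 0.104). Over all 13753 genes tested, 30.7% were called, 16.4% higher and 14.3% lower.

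Krt7 had 0.935, 0.614 and 0.935 CPM in the sham and 1.48, 2.43 and 0.676 CPM in the hepatectomy libraries, so the groups overlapped through hepatectomy 3 (log2 fold change 0.88 ± 0.45, adjusted p = 0.175). Without hepatectomy 3 it was called higher, at 1.24. The summed CPM of 5 mesothelial genes was 10.5, 12.8 and 5.22 in hepatectomy 1, 2 and 3, and 3.51, 4.27 and 9.31 in sham 1, 2 and 3. Its order was that of Krt7 among the hepatectomy libraries but not among the sham libraries, and not that of Krt19 in either group. Upk1b, a uroplakin, was the 1 mesothelial gene of 5 called higher by edgeR (1.63 ± 0.46, adjusted p = 0.0295), and DESeq2 called 2 of the 5 higher. Of the other cells, 4 of 8 hepatocyte genes were called lower, 2 of 10 stellate genes higher, and 1 of 8 macrophage and 1 of 7 endothelial genes lower. The part of mesothelial RNA or of these cells in the levels of Krt7 and Krt19, both also made by mesothelium, was not tested.

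Sox9 had 2.51, 1.87 and 2.1699 CPM in the sham and 2.59, 2.61 and 9.14 CPM in the hepatectomy libraries. Hepatectomy 3 set the log2 fold change of 1.13 ± 0.49 (adjusted p = 0.119), which was 0.25 without it, and DESeq2 called it higher with all libraries (1.124, adjusted p = 0.0418). Spp1 was 34.1, 27.2 and 20.2 CPM in the sham and 16.3, 18.5 and 21.9 CPM in the hepatectomy libraries, with a log2 fold change of -0.52 ± 0.19 (adjusted p = 0.0712), and was called lower without sham 3 (-0.69) or hepatectomy 3 (-0.64), by DESeq2 (-0.53, adjusted p = 0.0345) and with no filter on low counts (-0.52, adjusted p = 0.0452). Epcam (-0.33 ± 0.39, adjusted p = 0.56), Krt23 (-0.53 ± 0.52, adjusted p = 0.483) and Prom1 (0.02 ± 0.40, adjusted p = 0.977) overlapped between the groups. Cftr, at 1 to 5 counts, was not tested.

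None of the 14 further cholangiocyte genes tested was called after hepatectomy by edgeR (4 at an unadjusted p under 0.05, 1 called higher by DESeq2), with a median of 0.09. Of the regulators and signals of duct fate or genes of reactive ducts, 21 were tested, 5 were called higher and 1 lower (median 0.19, against 0.01 over all genes). Lcn2, a secreted iron-carrier protein and not a regulator of duct fate, averaged 6.97 ± 2.77 CPM in the sham and 234.8 ± 85.4 CPM in the hepatectomy libraries (SD, n = 3). Its log2 fold change was 5.07 ± 0.39 (adjusted p = 6.37e-05). Elf3 was higher by 2.15 ± 0.31, the TWEAK receptor gene Tnfrsf12a by 1.02 ± 0.17 and the Notch target Hes1 by 0.91 ± 0.24 (adjusted p = 0.00159, 0.003 and 0.0217).

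**Figure D3:**
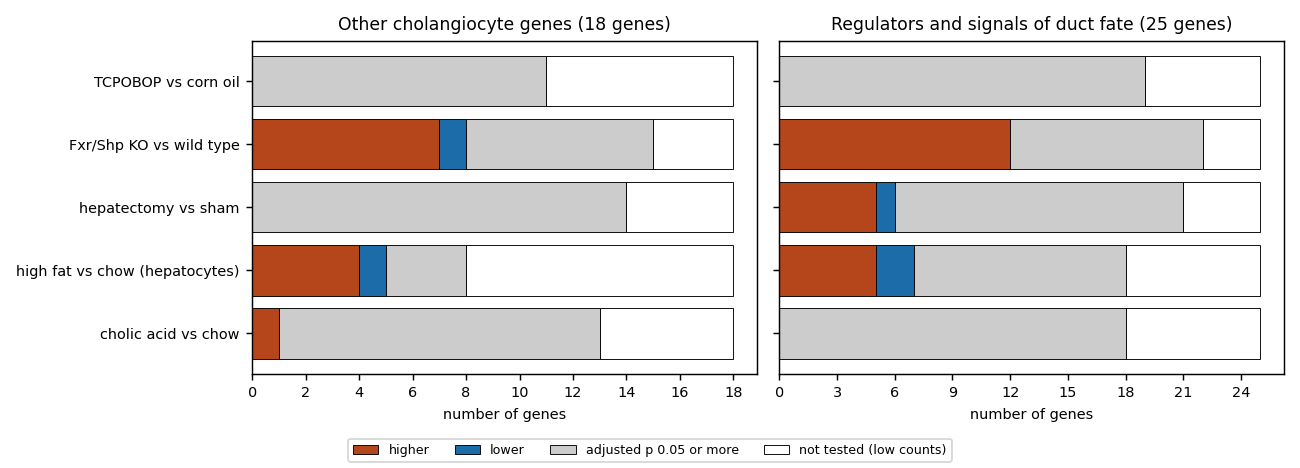
Number of genes (x axis) called higher, called lower, not called or not tested in each of the 5 comparisons (y axis), for 18 further cholangiocyte genes and 25 regulators and signals of duct fate or genes induced in reactive ducts. The knockout has the longest coloured bars, with 7 higher and 1 lower in the first list and 12 higher in the second, and TCPOBOP has none.

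With TCPOBOP, none of the 6 markers tested was called by edgeR, none had an unadjusted p under 0.05 and DESeq2 called none. Over all 12785 genes tested, 0% were called, in either direction (751 at an unadjusted p under 0.05, 109 called by DESeq2). The library labelled corn oil 1 held 20.005 CPM of Prom1 and corn oil 2 held 0.278 CPM, against 11.3 and 9.60 CPM after TCPOBOP, or 363 and 5 counts against 195 and 158. The controls thus lay on both sides of the treated libraries, and the log2 fold change was 0.03 ± 1.41 (adjusted p = 0.998). Without the library labelled corn oil 1, Prom1 was called higher at 5.19 (adjusted p = 0.000358). Without corn oil 2, it was called lower at -0.94 (adjusted p = 0.0298). In both of these fits the lone control was assumed to vary like the TCPOBOP group.

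Sox9 stood at 11.2 CPM in corn oil 1, at 5.501 CPM in corn oil 2 and at 4.87 and 3.58 CPM after TCPOBOP (log2 fold change -0.995 ± 0.41, adjusted p = 0.855), and was not called without corn oil 1 (-0.38, adjusted p = 0.549) but called lower without corn oil 2 (-1.42, adjusted p = 0.0281). Krt19 had 0.882 and 1.28 CPM with corn oil and 2.09 and 1.46 CPM with TCPOBOP (0.70 ± 0.40, adjusted p = 0.902). Krt7 (0.32 ± 0.45), Epcam (-0.18 ± 0.43) and Spp1 (-0.02 ± 0.16) overlapped between the groups. Krt23, at 5 to 10 counts, and Cftr, at 2 to 11 counts, were not tested. None of 11 further cholangiocyte genes and 19 regulators of duct fate tested was called (0 and 2 at an unadjusted p under 0.05, and none by DESeq2).

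The size of an effect was compared between the whole liver experiments with 3 or more libraries a group, as a difference of log2 fold changes in 1 fit over both experiments. Such differences also hold those of strain, age, feeding and genotype, which cannot be told apart from the treatments. Between the knockout and cholic acid, 3 of 8 markers differed (13.9% of all 13935 genes). Krt23 and Spp1 changed more in the knockout, by 2.81 ± 0.69 and 1.52 ± 0.38 (adjusted p = 0.0172 and 0.0187), and Prom1 changed more with cholic acid, by -2.98 ± 0.82 (adjusted p = 0.0292). The Prom1 call was lost without 1 of 7 of the 12 libraries (wild type 1 or 2, knockout 1 or 2, floxed chow 2, or cholic acid 1 or 2), at -3.05 to -2.61. Krt23 lost its call without wild type 1 (2.60), and Spp1 lost its call without wild type 3 (1.39).

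Between the knockout and hepatectomy, 5 of 8 markers differed (31.5% of all 14755 genes), and all 5 were higher in the knockout. Cftr differed by 4.83 ± 1.19, Krt23 by 2.51 ± 0.73, Spp1 by 2.22 ± 0.40, Epcam by 1.88 ± 0.49 and Prom1 by 1.69 ± 0.58, with adjusted p of 0.0079, 0.0186, 0.0011, 0.0106 and 0.0415. The Cftr value was 8.60 without wild type 2. Prom1 lost its call without any 1 of wild type 1 or 3, knockout 2 or 3, sham 1 or 2, or hepatectomy 1 or 2 (1.21 to 1.83), and Krt23 lost its call without sham 2 (2.31) or sham 3 (2.23). Without hepatectomy 3, Sox9 also differed (1.138, against 0.25 ± 0.63 with it). Krt19, called in both experiments, differed by 0.35 ± 0.47 (adjusted p = 0.609). Between hepatectomy and cholic acid, Prom1 was the 1 of 7 tested markers that differed (13% of all 13985 genes), by -4.66 ± 0.81 (adjusted p = 0.00363).

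**Figure D4:**
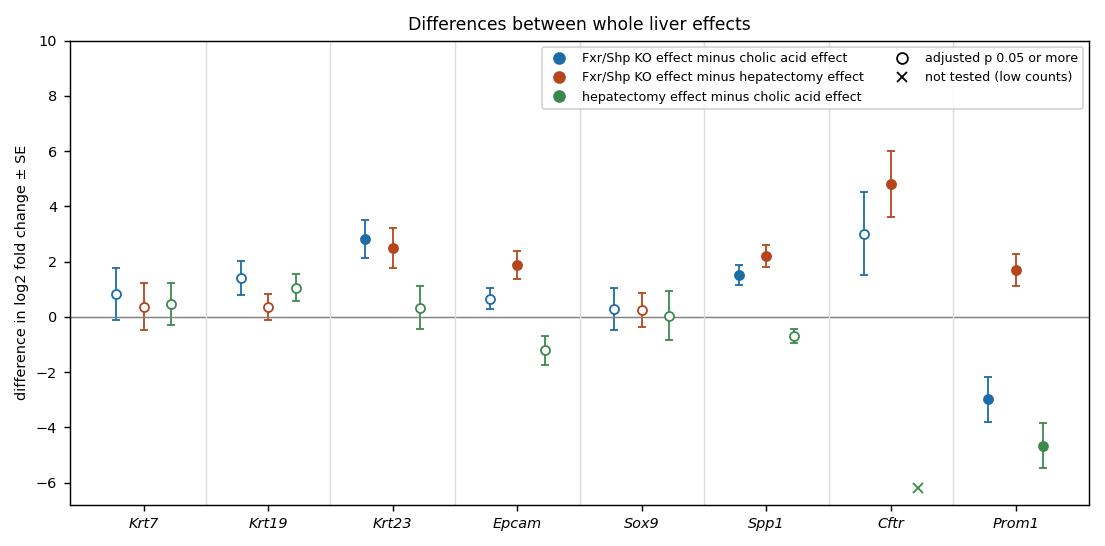
Difference between whole liver effects as log2 fold change ± SE (y axis) for each of the 8 genes (x axis), with filled points for an adjusted p under 0.05 and a cross for the gene not tested. Krt23 and Spp1 are filled above 0 in both differences that involve the knockout, and Prom1 is filled below 0 in both that involve cholic acid.

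The 5 genes whose profile was nearest to the median profile of the 8 markers were Tnip1, Gm8399, Gm6977, Atp6v1b2 and Ppil4. The measure was the mean absolute difference of log2 ratios to the control mean over 13 treated libraries, and it was 0.105, 0.107, 0.131, 0.135 and 0.138, against a median of 0.503 over 12175 genes. In the knockout libraries the log2 ratio was 0.74 to 1.00 for Tnip1, which encodes a ubiquitin-binding protein of inflammatory signalling, and 0.61 to 0.87 for Atp6v1b2, a proton pump subunit. The distances of the markers themselves from their median were as follows: Cftr at 0.189, Epcam at 0.230, Krt7 at 0.277, Krt19 at 0.385, Spp1 at 0.415, Krt23 at 0.758, Sox9 at 0.810 and Prom1 at 0.959. The 0.5 CPM added to each value holds the ratios of low genes such as Cftr and Krt7 near 0, each marker is part of the median, and the TCPOBOP ratios use a control mean that holds corn oil 1, so the order of these values is a description only.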

How the data were processed

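Messenger RNA of 26 libraries of mouse whole liver or hepatocytes was sequenced after a stranded kit, per the labels' protocols. The submitters' processing notes name bcl2fastq 2.17.1.14, Trimmomatic, STAR 2.4.2a, Picard 1.119, HTSeq and GRCm38 (mm10). The authors deposited whole-number read counts per gene, and the annotation version and strand setting are not given in the sources used here. The 5 summary lines were left out of library sizes and tests (ambiguous reads, 1.02% to 3.73% of a library). Ambiguous reads were 1.02% to 1.14% in wild type and 1.83% to 1.97% in the knockout libraries. They were also higher in each treated library than in each control of the hepatectomy, high fat and cholic acid comparisons. The part of this in the marker differences was not tested.

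Symbols were matched to 47224 of 47643 identifiers without version. Each treated group was tested against its own controls with edgeR 4.0.16 (TMM, filterByExpr with a minimum count of 10, quasi-likelihood F test, Benjamini-Hochberg adjusted p under 0.05 over all genes tested) in R 4.3.3. Standard errors (SE) were derived from the F statistic of each gene. Depths were 13949059 to 70367874 reads. Printed CPM use 1 scaling of all libraries, and profiles used log2 ratios with 0.5 added to CPM and, for genes other than the markers, a mean CPM of at least 1.

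All 8 markers are named in every comparison, and from the lists of further cholangiocyte genes and of regulators and signals of duct fate the 4 called genes with the largest change. Others outside that rule were chosen after their values were seen. These were Slc4a2, Krt8, Krt18, Aqp1 and the macrophage genes in the knockout, Upk1b and the acinar genes. The markers and lists were chosen with earlier results of these data known. By correlation, same-numbered libraries were each other's best match in the TCPOBOP (0.121), high fat (0.13) and cholic acid comparisons (0.0977 to 0.158). In hepatectomy only pair 2 was (0.106), and in the knockout no pair was. The fits of the knockout, of the high fat diet and of the knockout minus cholic acid were tested on simulated data. There the spread was the same for every gene, and changes were set only in genes above a minimum level. The other fits were not tested in this way. The alternatives were RLE size factors, DESeq2 1.42.0, no filter, 1 fit of all 26 libraries, the replicate number as a block, a minimum fold change and leaving out each library.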

Additional observations from a re-analysis of the deposited data

Results flagged for a closer look

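In 9 cases the change of a marker differed between 2 whole liver experiments by the test of the difference itself, as a difference of log2 fold changes in edgeR. Over all genes tested, 13.9%, 31.5% and 13% differed, in the order given below. The Fxr-/- Shp-/- effect minus the cholic acid effect was 2.81 for Krt23, 1.52 for Spp1 and -2.98 for Prom1 (adjusted p = 0.0172, 0.0187 and 0.0292). The Fxr-/- Shp-/- effect minus the hepatectomy effect was 2.51 for Krt23, 1.88 for Epcam, 2.22 for Spp1, 4.83 for Cftr and 1.69 for Prom1 (adjusted p = 0.0186, 0.0106, 0.0011, 0.0079 and 0.0415). The hepatectomy effect minus the cholic acid effect was -4.66 for Prom1 (adjusted p = 0.00363). Of 12 fits that each left out 1 library, 7 lost the Prom1 call of the knockout minus cholic acid. For Prom1 in the knockout minus hepatectomy, 8 of 12 such fits lost the call. The experiments also differ in strain, age, feeding or genotype, which cannot be told apart from the treatment.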

How the results depend on the processing

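Among the counts of markers called, that of the knockout (7) was 5 in 1 fit of all 26 libraries (without Sox9 and Prom1) and 6 to 7 with 1 library left out, and that of cholic acid (1) was 1 in each such fit. For hepatectomy (1) it was 3 with DESeq2, 2 with no filter, 0 in 1 fit of all 26 libraries, 0 with the replicate block, 0 with a minimum log2 fold change of 1 and 0 to 3 with 1 library left out. For high fat hepatocytes (1) it was 3 with DESeq2, 2 with no filter, 3 in 1 fit of all 26 libraries (Krt19, Krt23 and Spp1), 3 with the replicate block and 1 to 3 with 1 library left out. For TCPOBOP (0) it was 0 to 2 with 1 library left out, where Prom1 was 5.19 without corn oil 1 and turned to -0.94 without corn oil 2. Markers that differed between experiments were 1 to 3, 3 to 6 and 1 to 2 with 1 library left out, for the knockout minus cholic acid (3), the knockout minus hepatectomy (5) and hepatectomy minus cholic acid (1).

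Over all genes, the TCPOBOP count of 0 was 109 with DESeq2, 9 in 1 fit of all 26 libraries and 0 to 1233 with 1 library left out. The knockout count of 5441 was 2078 at the minimum fold change. The hepatectomy count of 4225 was 1389 at that minimum and 2554 to 4217 with 1 library left out. The high fat count of 3333 was 1735 in 1 fit of all 26 libraries, 1421 at the minimum fold change and 1141 to 2644 with 1 library left out. The cholic acid count of 600 was 1445 with DESeq2, 955 with no filter, 3132 in 1 fit of all 26 libraries and 189 to 1345 with 1 library left out. The cause of these moves was not tested, other than that a minimum fold change removes calls by its construction.

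The replicate block ended the call of Krt19 after hepatectomy (0.87, adjusted p = 0.0661) and of the Prom1 differences of the knockout from cholic acid (-2.91, adjusted p = 0.0603) and from hepatectomy (1.60, adjusted p = 0.0872), which 1 fit of all 26 libraries also ended (adjusted p = 0.108 and 0.36). The block added calls of Sox9 (-1.44) and Spp1 (1.16) in high fat hepatocytes, and changed no other call of a marker. Same-numbered libraries correlated at -0.199 to 0.158. Depth limits Cftr, at 0 to 25 counts a library, and Krt7 outside hepatectomy, at 0 to 29.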
